A study of Mus musculus with 2 samples.

Results

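The 39 HOX genes of the mouse, those of the Hoxa, Hoxb, Hoxc and Hoxd clusters, were followed through single cells of the abdominal aorta in 2 libraries. They were taken as every feature whose symbol is Hox, a cluster letter and a number, 39 of 31253 features, and their antisense and opposite-strand transcripts were left out. One library came from mice with a global deletion of Gsdme (Gsdme-KO), the gene of the pore-forming protein gasdermin E, and the other from C57BL/6J mice (WT). In both groups an aneurysm had been induced by infusing PPE, which in this model usually stands for porcine pancreatic elastase, so no aorta without PPE was compared. The labels do not state the number, age or sex of the mice, nor the genetic background of the deletion line. Cells were captured with BD Rhapsody, and each count is taken to be 1 unique molecular identifier (UMI), that is 1 captured transcript. With 1 library per group no test was possible, and every interval below is a 95% interval of counting error alone.

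HOX genes encode homeodomain transcription factors. Along each cluster, genes at one end are switched on early and towards the head of the embryo, and genes at the other end late and towards the tail. Genes with the same number in different clusters are paralogues, and the number therefore stands for a position along the body axis. Adult fibroblasts, smooth muscle and endothelium are known to keep part of the HOX pattern of the region they came from, while in blood cells a few HOX genes, Hoxb4 among them, are known from stem and progenitor cells.

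The clusters lie on chromosome 6 (Hoxa, 52155590 to 52260880, 11 genes, minus strand), chromosome 11 (Hoxb, 96194316 to 96368256, 10 genes), chromosome 15 (Hoxc, 102921103 to 103036852, 9 genes) and chromosome 2 (Hoxd, 74668310 to 74765142, 9 genes), in mm10 with GENCODE M21 annotation. What the members share is the homeobox, the 180 bases that code for the DNA-binding homeodomain, which lay in a single exon in each of the 39 genes. The homeoboxes below are those of the members with the most UMIs in the Hoxa, Hoxc and Hoxd clusters (Hoxa5, Hoxc10 and Hoxd8) and of 4 members (Hoxb2, Hoxa4, Hoxc6 and Hoxb7) past 1.5-fold between the libraries in a fibroblast-like cluster, with an interval that leaves out 1. They are coding sequence of the GENCODE M21 transcripts, 5′ to 3′ along the gene's own strand, and capitals mark the codons at the core of the third helix, which contacts DNA in homeodomains.
Hoxb2, chr11:96352985-96353164, plus strand: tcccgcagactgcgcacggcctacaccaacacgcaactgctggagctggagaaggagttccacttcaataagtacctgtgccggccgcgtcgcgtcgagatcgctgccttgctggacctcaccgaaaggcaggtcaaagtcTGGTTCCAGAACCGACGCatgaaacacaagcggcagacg
Hoxa4, chr6:52190483-52190662, minus strand: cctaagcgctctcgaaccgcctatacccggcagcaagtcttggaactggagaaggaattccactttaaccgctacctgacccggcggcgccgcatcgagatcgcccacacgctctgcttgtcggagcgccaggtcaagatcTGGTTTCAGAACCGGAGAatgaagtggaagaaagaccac
Hoxa5, chr6:52202632-52202811, minus strand: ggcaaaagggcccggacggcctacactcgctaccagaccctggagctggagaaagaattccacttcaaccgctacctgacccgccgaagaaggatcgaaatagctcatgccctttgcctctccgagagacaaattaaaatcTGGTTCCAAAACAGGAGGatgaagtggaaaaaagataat
Hoxc6, chr15:103010754-103010933, plus strand: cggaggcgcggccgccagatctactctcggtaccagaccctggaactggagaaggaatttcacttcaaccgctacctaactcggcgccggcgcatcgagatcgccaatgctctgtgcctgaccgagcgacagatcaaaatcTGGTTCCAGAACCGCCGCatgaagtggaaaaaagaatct
Hoxb7, chr11:96289385-96289564, plus strand: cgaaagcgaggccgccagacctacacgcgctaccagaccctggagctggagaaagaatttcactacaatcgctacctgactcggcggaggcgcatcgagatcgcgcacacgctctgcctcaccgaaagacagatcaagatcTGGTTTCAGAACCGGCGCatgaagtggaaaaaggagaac
Hoxd8, chr2:74706525-74706704, plus strand: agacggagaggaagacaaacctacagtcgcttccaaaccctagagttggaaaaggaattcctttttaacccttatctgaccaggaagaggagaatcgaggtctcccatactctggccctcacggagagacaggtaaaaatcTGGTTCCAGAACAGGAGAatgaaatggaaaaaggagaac
Hoxc10, chr15:102970848-102971027, plus strand: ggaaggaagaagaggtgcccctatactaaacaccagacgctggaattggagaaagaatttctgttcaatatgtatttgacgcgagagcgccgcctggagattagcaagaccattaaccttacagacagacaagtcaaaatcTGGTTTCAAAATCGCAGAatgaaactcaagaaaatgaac

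Over the whole homeobox, pairs from the same paralogue group had a median of 80.6% identical bases (42 pairs, 67.2% to 93.9%), and pairs from different groups 60.6% (699 pairs, 46.1% to 88.9%). Hoxc6 and Hoxb7, of different groups, had 82.8% of bases in common. No pair was identical over its homeobox.

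Sequencing depth was 52532964 UMIs over 9034 barcodes for Gsdme-KO, against 38988898 UMIs over 7736 barcodes for WT. After a filter on cells 8784 Gsdme-KO and 7619 WT cells were kept, and 73 barcodes occurred in both libraries. Gsdme itself was at 2.55 CPM (UMIs of the gene per 1000000 UMIs; 2.13 to 3.02) in Gsdme-KO and 5.53 CPM (4.82 to 6.32) in WT cells, so transcripts of the targeted gene were fewer but still captured. The labels do not state which part of the gene the deletion removes. Cells were grouped into 25 clusters, with HOX genes kept out of the choice of variable genes, and 21 clusters were named from marker genes. Of these, 7 were stromal or vascular (2 fibroblast-like, smooth muscle-like, endothelial-like, lymphatic endothelial-like, mesothelial-like and adipocyte-like), 13 were immune or platelet-like and 1, cluster 20, was mixed, while another 4 clusters stayed unnamed. The 2 fibroblast-like clusters were kept apart by number because the pericyte marker Abcc9 was among the 10 leading genes of cluster 3. Cluster 3 was led by Sfrp1, Mfap4, C7 and Gdf10 and cluster 4 by Sema3c, Bmp3, Igfbp5 and Cd55, and all 10 fibroblast markers were detected in both.

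Of the 39 members, 35 had at least 1 UMI in a kept cell, with 8155 HOX UMIs in Gsdme-KO and 4651 in WT cells. Hoxb1, Hoxb13, Hoxc12 and Hoxd12 had none, which allows a share of cells with a UMI of up to 0.0342% in the Gsdme-KO and 0.0394% in the WT library. The 7 stromal and vascular clusters held 19.5% of the cells and 87.3% of the HOX UMIs. Hoxc genes gave 6268 UMIs, Hoxa genes 2972, Hoxb genes 2410 and Hoxd genes 1156. Counts were not divided by gene length, because each UMI stands for 1 captured transcript whatever its length, and shares between genes below are shares of captured transcripts. The 22 members with at least 30 UMIs in a stromal or vascular cluster are described one by one. The other 13 with UMIs are given by their counts, and by ratios where a comparison of clusters takes them in.

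HOX transcripts were far more frequent in the stromal and vascular clusters than in the immune clusters. Summed over the members, the 7 stromal and vascular clusters stood at 356 CPM (348 to 364) in Gsdme-KO and 387 CPM (375 to 399) in WT cells. The 13 immune clusters stood at 17.1 CPM (15.7 to 18.7) in Gsdme-KO and 18 CPM (16.4 to 19.7) in WT cells. The intervals of these 2 compartments lay far apart in both libraries. The unnamed clusters were uneven. Cluster 10 stood at 266 CPM in Gsdme-KO and 331 CPM in WT cells, with fibroblast markers at 54.9% and 72.2% of their cluster 3 level. Cluster 5 stood at 97.2 CPM in Gsdme-KO and 110 CPM in WT cells, with fibroblast markers at 5.39% and 3.53% of that level. Clusters 12 and 18 stood between 11.7 and 32.5 CPM. Among the 4 stromal and vascular clusters with at least 50 cells in each library, the order from high to low in the Gsdme-KO library was endothelial-like cells at 427 CPM (388 to 469), smooth muscle-like cells at 365 CPM (328 to 405), fibroblast-like cluster 3 at 354 CPM (342 to 366) and fibroblast-like cluster 4 at 344 CPM (331 to 358). In the WT library it was endothelial-like cells at 464 CPM (414 to 519), smooth muscle-like cells at 407 CPM (353 to 468), cluster 3 at 402 CPM (384 to 419) and cluster 4 at 347 CPM (329 to 367). Endothelial-like cells came first of these 4 in both libraries, and the intervals of neighbours in this order overlapped, except those of clusters 3 and 4 in the WT library. The smaller clusters had wide intervals: mesothelial-like cells stood at 386 CPM (331 to 447) in Gsdme-KO and 447 CPM (368 to 536) in WT, lymphatic endothelial-like cells at 383 CPM (293 to 491) in Gsdme-KO and 551 CPM (388 to 759) in WT, and adipocyte-like cells at 373 CPM (307 to 448) in Gsdme-KO and 166 CPM (75.8 to 315) in WT.

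**Figure D1:**
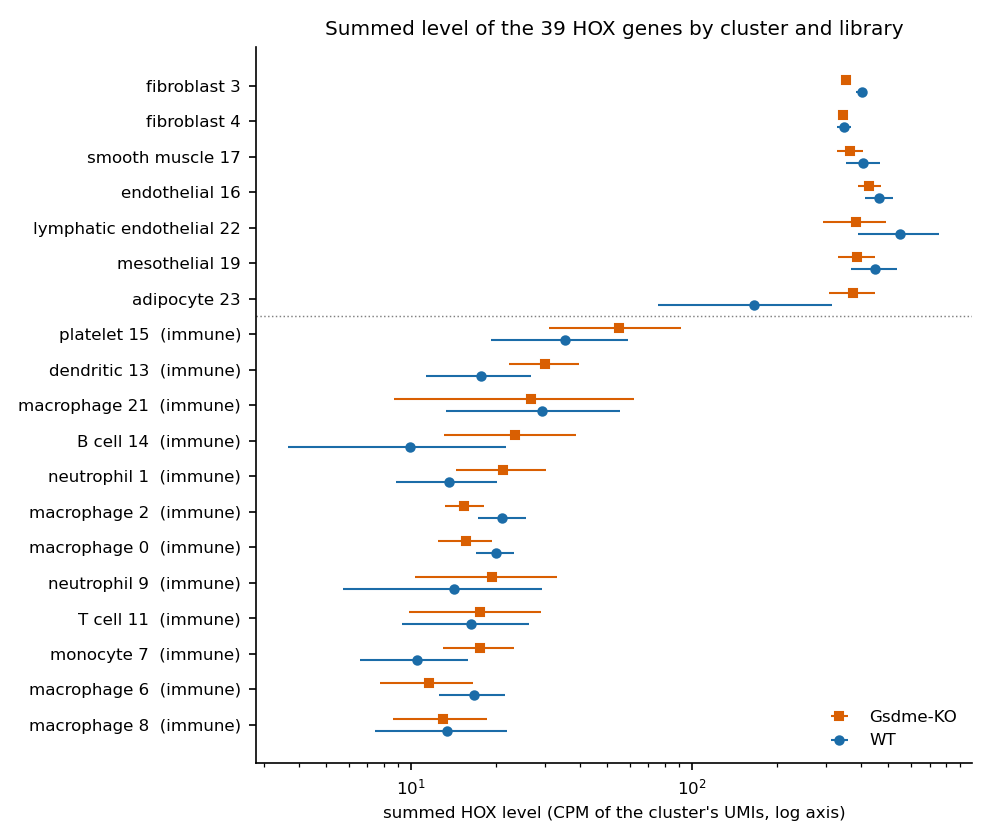
Summed level of the 39 HOX genes in each named cluster, in CPM on a log axis, with squares for the Gsdme-KO and circles for the WT library and bars for the exact 95% Poisson interval. Stromal and vascular clusters lie above the dotted line, at 344 to 427 CPM in Gsdme-KO cells, and immune clusters below it; the WT adipocyte point rests on 7 cells, and cluster 20 and the mast and basophil-like cluster, with 0 HOX UMIs, are not drawn.

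The share of cells with any HOX UMI depended on depth. In fibroblast-like cluster 3 it was 90.6% of 836 Gsdme-KO and 86.6% of 568 WT cells, at medians of 10024 UMIs per Gsdme-KO cell and 8163 per WT cell, and in endothelial-like cells 58.8% of 165 Gsdme-KO and 64.8% of 128 WT cells, at 2568 and 2608 UMIs. Thinned to 1000 UMIs per cell, the share was 44.0% (34.5 to 53.9) in Gsdme-KO and 35.6% (25.7 to 46.3) in WT endothelial-like cells, and 31.2% (28.1 to 34.5) in Gsdme-KO and 33.4% (29.5 to 37.4) in WT cells of cluster 3. Thinning left out 56 Gsdme-KO and 38 WT endothelial-like cells with fewer UMIs. Macrophage-like cluster 2, as deep as the fibroblasts, had 1.64% in Gsdme-KO and 1.43% in WT cells after thinning, and neutrophil-like cluster 1 had 1.78% in Gsdme-KO and 1.44% in WT cells. These immune shares count any HOX UMI, Hoxb3 and Hoxb4 included. A single fibroblast held a median of 3 HOX UMIs in both libraries, and the highest count in a cell of cluster 3 was 28 in Gsdme-KO and 21 in WT cells. Transcripts of all 4 HOX clusters were captured together in 5.26% of Gsdme-KO and 3.70% of WT cells of cluster 3.

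The make-up of the HOX transcripts also differed between the cell types. Hoxc genes gave 56.7% of HOX UMIs in Gsdme-KO and 57.1% in WT cells of fibroblast-like cluster 3, 53.1% and 53.8% in the Gsdme-KO and WT cells of cluster 4, and 43.0% (37.7 to 48.4) in Gsdme-KO and 48.0% (40.9 to 55.2) in WT smooth muscle-like cells. In endothelial-like cells they gave 8.52% (6.10 to 11.5) in Gsdme-KO and 6.39% (3.95 to 9.70) in WT cells. Hoxb genes filled much of that gap, with 39.9% (35.3 to 44.6) in Gsdme-KO and 41.2% (35.7 to 46.9) in WT endothelial-like cells, against 12.5% in Gsdme-KO and 11.6% in WT cells of cluster 3. Hoxa genes gave 39.2% in Gsdme-KO and 40.6% in WT endothelial-like cells, against 20.4% in Gsdme-KO and 21% in WT cells of cluster 3. The intervals of endothelial-like and cluster 3 cells did not overlap for any of these 3 shares in either library.

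**Figure D2:**
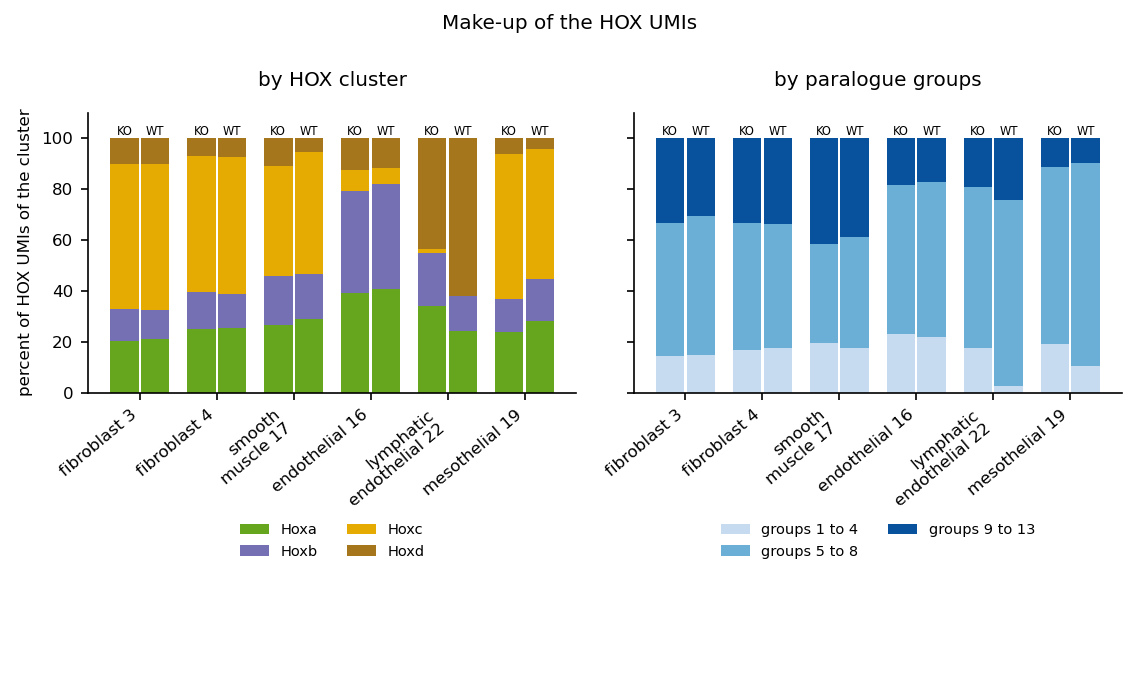
Percent of each cluster's HOX UMIs that came from each HOX cluster (left) and from paralogue groups 1 to 4, 5 to 8 and 9 to 13 (right), with the Gsdme-KO bar left of the WT bar. The Hoxc part is 56.7% and 57.1% in Gsdme-KO and WT fibroblast-like cluster 3 but 8.52% and 6.39% in Gsdme-KO and WT endothelial-like cells, and the adipocyte-like cluster is left out for its 9 HOX UMIs in WT.

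By position along the body axis, groups 9 to 13, the trunk to tail end, gave 33.2% (31.6 to 34.8) of HOX UMIs in Gsdme-KO and 30.8% (28.8 to 32.9) in WT cells of cluster 3. Smooth muscle-like cells had 41.5% (36.3 to 46.9) in Gsdme-KO and 39% (32.2 to 46.1) in WT cells, endothelial-like cells 18.6% (15.1 to 22.5) in Gsdme-KO and 17.3% (13.2 to 21.9) in WT cells, and mesothelial-like cells 11.3% (7.04 to 16.9) in Gsdme-KO and 9.65% (4.92 to 16.6) in WT cells. Groups above 10 were scarce. In cluster 3, group 11 gave 0.886% in Gsdme-KO and 1.42% in WT cells, and group 13 gave 3 UMIs in each library. The mean paralogue number of a HOX UMI was 6.15 in both Gsdme-KO and WT endothelial-like cells, against 7.19 in Gsdme-KO and 7.08 in WT cells of cluster 3. Without Hoxc10, the member with the most UMIs, the mean in cluster 3 was 6.66 in Gsdme-KO and 6.64 in WT cells.

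The anterior members, groups 2 to 4, pattern the hindbrain, neck and pharyngeal arches in the mouse embryo. In cluster 3, Hoxb2 stood at 7.22 CPM in Gsdme-KO and 9.07 CPM in WT cells, and Hoxa2 at 2.20 CPM in Gsdme-KO and 2.96 CPM in WT cells. Hoxa3, needed for the thymus and parathyroid, stood at 5.34 CPM in Gsdme-KO and 8.09 CPM in WT cells, and Hoxb3 at 7.01 CPM in Gsdme-KO and 9.66 CPM in WT cells. All 4 were at or below 11.4 CPM in both fibroblast-like clusters. Of group 4, Hoxc4 stood at 13.4 CPM in Gsdme-KO and 14.8 CPM in WT cells, Hoxb4 at 10.4 CPM in Gsdme-KO and 11.6 CPM in WT cells, and Hoxa4 at 4.19 CPM in Gsdme-KO and 1.97 CPM in WT cells of cluster 3. Hoxd3 and Hoxd4 had 6 and 23 UMIs in all kept cells, and 62.3% of the exonic bases of Hoxd3 and 52.3% of those of Hoxd4 are shared with another gene on the same strand, so their low counts are uncertain.

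The middle members, groups 5 to 8, pattern the neck, shoulder and chest. Hoxa5, known for its part in the lung and in the neck to chest vertebrae, stood at 23.5 CPM in Gsdme-KO and 29.8 CPM in WT cells of cluster 3, and Hoxc5 at 21.7 CPM in Gsdme-KO and 22.3 CPM in WT cells. Hoxc6, a chest-level gene, stood at 32.7 CPM in Gsdme-KO and 50.1 CPM in WT cells. Hoxc8, known from lower chest vertebrae and brachial motor neurons, stood at 49.7 CPM in Gsdme-KO and 60.7 CPM in WT cells, and Hoxd8 at 26.3 CPM in Gsdme-KO and 26.0 CPM in WT cells. Hoxa7 stood at 15 CPM in Gsdme-KO and 16.8 CPM in WT cells, while Hoxb6 and Hoxb7 lay between 3.16 and 7.53 CPM in both libraries.

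Of the posterior members, Hoxc10 belongs to the group that specifies the lumbar region, and the abdominal aorta lies along it. It stood at 56.0 CPM in Gsdme-KO and 52.3 CPM in WT cells of cluster 3 and at 53.6 CPM in Gsdme-KO and 59.3 CPM in WT cells of cluster 4. Hoxa10 stood at 9.63 CPM in Gsdme-KO and 10.1 CPM in WT cells of cluster 3, and Hoxd10 at 2.93 CPM in Gsdme-KO and 3.16 CPM in WT cells. Of group 9, Hoxc9 stood at 26.4 CPM in Gsdme-KO and 27.8 CPM in WT cells, Hoxa9 at 9.94 CPM in Gsdme-KO and 11.8 CPM in WT cells, Hoxd9 at 6.07 CPM in Gsdme-KO and 9.07 CPM in WT cells, and Hoxb9 at 3.35 CPM in Gsdme-KO and 3.16 CPM in WT cells. In each of groups 4, 6, 8, 9 and 10 the Hoxc paralogue had the most UMIs of its group in cluster 3, in both libraries. Hoxc5 and Hoxc10 share 166 exonic bases in the annotation, 5.37% of Hoxc5 and 8.70% of Hoxc10.

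**Figure D3:**
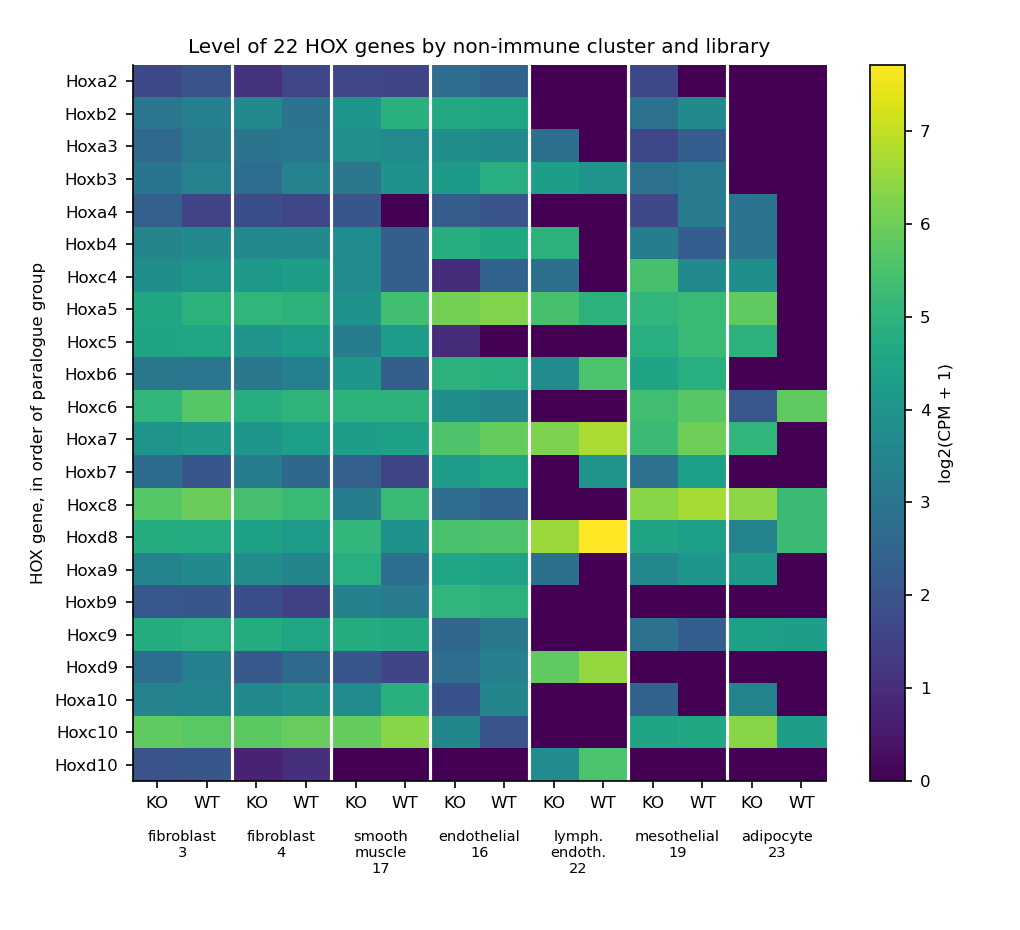
Level of the 22 members with at least 30 UMIs in a stromal or vascular cluster, as log2(CPM + 1), with genes ordered by paralogue group and, for each cluster, the Gsdme-KO column left of the WT column. Hoxc8 is bright in the fibroblast-like and mesothelial-like columns and dark in the 2 endothelial ones, where Hoxa7 and Hoxd8 are bright; Hoxd8 reaches 208 CPM in the 19 WT lymphatic endothelial-like cells.

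The 2 fibroblast-like clusters differed in the Hoxa share, at 24.9% (23.2 to 26.6) in Gsdme-KO and 25.5% (23.2 to 28) in WT cells of cluster 4, against 20.4% (19.1 to 21.8) in Gsdme-KO and 21% (19.3 to 22.9) in WT cells of cluster 3, with intervals apart in both libraries. The Hoxd share was lower in cluster 4 in both libraries. In Gsdme-KO cells it was 7.29% (6.33 to 8.36) against 10.4% (9.39 to 11.5) in cluster 3, with intervals apart. In WT cells it was 7.54% (6.17 to 9.10) against 10.3% (8.98 to 11.7), with intervals that overlapped. A member counts here as different between clusters when the 95% interval of its ratio left out 1 on the same side in both libraries. Only genes with at least 30 UMIs, summed over the 2 clusters and both libraries, were compared. Of 27 members compared, none was higher in cluster 4 than in cluster 3 (12.2% of all genes were), and 3 were lower (9.13% of all genes were). These were Hoxd8, at 20.1 CPM in Gsdme-KO and 18 CPM in WT cells of cluster 4, Hoxc8, at 41.9 CPM in Gsdme-KO and 36.2 CPM in WT cells, and Hoxc6, at 26.7 CPM in Gsdme-KO and 31.2 CPM in WT cells. The ratios of cluster 4 over cluster 3 were 0.766 in Gsdme-KO and 0.691 in WT cells for Hoxd8, 0.844 in Gsdme-KO and 0.597 in WT cells for Hoxc8, and 0.815 in Gsdme-KO and 0.623 in WT cells for Hoxc6.

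In endothelial-like cells the pattern turned from Hoxc to Hoxb. Of 24 members compared with fibroblast-like cluster 3, 11 were higher in both libraries, beside 23.0% of all genes, and 6 were lower, beside 10.5% of all genes. The higher ones were all 8 Hoxb members compared, Hoxb2 to Hoxb9, with Hoxa5, Hoxa7 and Hoxd8. The lower ones were all 6 Hoxc members compared, Hoxc4 to Hoxc10. Hoxb5 and Hoxb8 reached the minimum of 30 UMIs only with their endothelial-like UMIs counted, so the minimum favoured their place among the 11. In cluster 3 Hoxb5 had 14 UMIs in Gsdme-KO and 8 in WT cells, and Hoxb8 had 16 in Gsdme-KO and 7 in WT cells. Hoxb9, of the chest-level group 9, stood at 32.6 CPM in Gsdme-KO and 29.7 CPM in WT endothelial-like cells, against 3.35 CPM in Gsdme-KO and 3.16 CPM in WT cells of cluster 3. That is a ratio of 9.73 (5.82 to 16.3) in Gsdme-KO and 9.40 (4.63 to 19.4) in WT cells. Hoxb5, in the mouse a marker of long-term blood stem cells, stood at 10.5 CPM in Gsdme-KO and 17.8 CPM in WT endothelial-like cells, 7.19 times (2.95 to 17.1) and 11.3 times (4.24 to 31.8) its level in Gsdme-KO and WT cells of cluster 3. Hoxb8 was at 11.5 CPM in Gsdme-KO and 19.3 CPM in WT endothelial-like cells, on 12 and 13 UMIs. Hoxa5 stood at 68.0 CPM in Gsdme-KO and 75.6 CPM in WT endothelial-like cells, with ratios over cluster 3 of 2.89 (2.18 to 3.79) in Gsdme-KO and 2.54 (1.81 to 3.51) in WT cells. Hoxa7 stood at 46.0 CPM in Gsdme-KO and 57.8 CPM in WT endothelial-like cells, and Hoxd8 at 44.1 CPM in Gsdme-KO and 46.0 CPM in WT ones. Both were higher than in cluster 3 in each library, and for Hoxd8 the ratio was 1.68 in Gsdme-KO and 1.77 in WT cells.

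**Figure D4:**
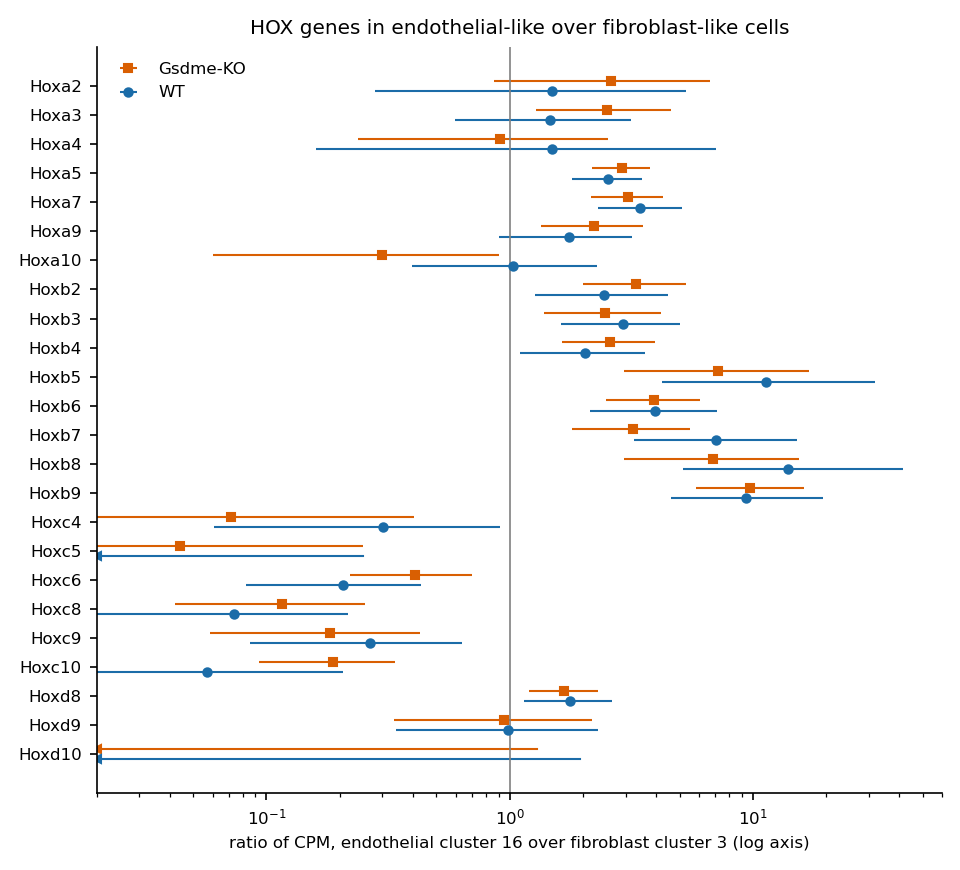
Ratio of CPM in endothelial-like cluster 16 over fibroblast-like cluster 3 for 24 HOX genes, ordered by HOX cluster, on a log axis with exact 95% intervals, squares for Gsdme-KO and circles for WT; arrowheads at the left edge stand for 0 UMIs in endothelial-like cells, and intervals are drawn down to 0.02. All 8 Hoxb members lie right of 1 and all 6 Hoxc members left of it in both libraries. Hoxb5 and Hoxb8 reached the minimum of 30 UMIs only with their endothelial-like UMIs counted, which favoured their place on the right. The WT ratios of the other Hoxb members run from 2.04 for Hoxb4 to 9.40 for Hoxb9.

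The Hoxc genes were low in endothelial-like cells but not at 0. Hoxc10 stood at 10.5 CPM in Gsdme-KO and 2.97 CPM in WT endothelial-like cells, against 56.0 CPM in Gsdme-KO and 52.3 CPM in WT cells of cluster 3. Hoxc8 stood at 5.75 CPM in Gsdme-KO and 4.45 CPM in WT endothelial-like cells, and Hoxc5 had 1 UMI in Gsdme-KO and 0 in WT ones, with an upper bound of 0.250 for its WT ratio. Summed, Hoxc genes in endothelial-like cells reached 18.1% of their cluster 3 level in Gsdme-KO and 12.9% in WT cells. All 10 fibroblast markers were also detected there, at a summed level of 1933 CPM in Gsdme-KO and 3316 CPM in WT endothelial-like cells, which is 3.0% and 4.80% of the Gsdme-KO and WT level in cluster 3.

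Lymphatic endothelial-like cells, 30 in Gsdme-KO and 19 in WT, carried a pattern of their own, with Hoxd genes in first place. Hoxd genes gave 43.5% (31.0 to 56.7) of HOX UMIs in Gsdme-KO and 62.2% (44.8 to 77.5) in WT lymphatic endothelial-like cells, against 12.3% (9.43 to 15.7) in Gsdme-KO and 11.8% (8.46 to 15.9) in WT blood endothelial-like cells. Of 62 HOX UMIs in Gsdme-KO and 37 in WT lymphatic endothelial-like cells, 1 and 0 came from a Hoxc gene, and for the 0 the upper bound of the share was 9.49%. Of 22 members compared with cluster 3, 3 were higher (6.86% of all genes) and 1 was lower (4.37% of all genes) in both libraries. Hoxd8 stood at 92.6 CPM in Gsdme-KO and 208 CPM in WT lymphatic endothelial-like cells, with ratios over cluster 3 of 3.53 (1.94 to 5.93) in Gsdme-KO and 8.01 (4.26 to 13.9) in WT cells. Hoxd9 stood at 55.5 CPM in Gsdme-KO and 89.4 CPM in WT cells, with ratios of 9.15 (3.99 to 18.6) in Gsdme-KO and 9.85 (3.44 to 23.1) in WT cells, and Hoxa7 at 74.1 CPM in Gsdme-KO and 104 CPM in WT cells. Hoxc8, the lower one, had 0 UMIs in both. Hoxa7, Hoxd8 and Hoxc8 differed from cluster 3 in the same direction in blood endothelial-like cells, while Hoxd9 did not differ there by this rule. Hoxd10 gave 2 UMIs in Gsdme-KO and 3 in WT lymphatic endothelial-like cells, and 0 in blood endothelial-like, smooth muscle-like and mesothelial-like cells of both libraries.

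Mesothelial-like cells, 58 in Gsdme-KO and 42 in WT, had more Hoxc8 and less Hoxc9 and Hoxc10 than fibroblast-like cluster 3. Of 22 members compared with cluster 3, 3 were higher (9.46% of all genes) and 2 were lower (6.65% of all genes) in both libraries. Hoxc8 stood at 80.7 CPM in Gsdme-KO and 102 CPM in WT mesothelial-like cells, with ratios of 1.62 (1.13 to 2.27) in Gsdme-KO and 1.68 (1.08 to 2.50) in WT cells. Hoxa7 stood at 37.1 CPM in Gsdme-KO and 62.7 CPM in WT mesothelial-like cells and Hoxb6 at 21.8 CPM in Gsdme-KO and 27.4 CPM in WT ones, and both were higher than in cluster 3. Hoxc10 stood at 21.8 CPM in Gsdme-KO and 23.5 CPM in WT mesothelial-like cells, with ratios of 0.389 (0.186 to 0.722) in Gsdme-KO and 0.450 (0.164 to 0.992) in WT cells. Hoxc9 was also lower, on 3 UMIs in Gsdme-KO and 1 in WT mesothelial-like cells.

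Smooth muscle-like cells, 184 in Gsdme-KO and 75 in WT, had few UMIs for most members, so few could pass the rule. In Gsdme-KO cells their Hoxc share and their share of groups 9 to 13, given above, had intervals apart from those of cluster 3. Of 22 members compared, Hoxb2 alone was higher in both libraries (10.4% of all genes were) and Hoxc8 alone was lower (9.58% of all genes were). Hoxb2 stood at 15.7 CPM in Gsdme-KO and 28.5 CPM in WT smooth muscle-like cells, with ratios of 2.17 (1.15 to 3.83) in Gsdme-KO and 3.14 (1.60 to 5.82) in WT cells. Hoxc8 stood at 8.36 CPM in Gsdme-KO and 36.7 CPM in WT smooth muscle-like cells, with ratios of 0.168 (0.0722 to 0.334) in Gsdme-KO and 0.603 (0.353 to 0.970) in WT cells. Hoxc10 stood at 58.5 CPM in Gsdme-KO and 79.4 CPM in WT smooth muscle-like cells. Fibroblast markers were high in this cluster, all 10 of 10, at a summed 33949 CPM in Gsdme-KO and 52346 CPM in WT cells, or 52.7% and 75.8% of the Gsdme-KO and WT level in cluster 3, and their part in these values was not tested. Hoxc13, of the group that patterns the tail end, hair and nails, gave 8 UMIs in 6 of 184 Gsdme-KO smooth muscle-like cells and 0 in every other kept cell. In the 75 WT smooth muscle-like cells the 0 allows a share of up to 4.0%. In adipocyte-like cells, 38 in Gsdme-KO and 7 in WT, no member of 22 differed from cluster 3 in both libraries in either direction (3.88% and 4.29% of all genes were higher and lower), and the WT value rests on 9 HOX UMIs.

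Over the immune clusters together, Hoxb3 and Hoxb4, neighbours in the Hoxb cluster, gave a larger share of the few HOX transcripts than in stromal and vascular cells. They gave 50.2% (45.7 to 54.8) of HOX UMIs in Gsdme-KO and 57.5% (52.9 to 62.0) in WT immune cells, against 5.33% (4.82 to 5.87) in Gsdme-KO and 5.89% (5.18 to 6.67) in WT stromal and vascular cells. Of all Hoxb4 UMIs, 46.3% lay in stromal and vascular cells, the lowest share of any of the 22 members, and of Hoxb3 UMIs 60.1%, the next lowest. Hoxb4, known for expanding blood stem cells, stood at 5.99 CPM (4.56 to 7.73) in Gsdme-KO and 10.3 CPM (7.63 to 13.5) in WT cells of macrophage-like cluster 2, and at 7.30 CPM in Gsdme-KO and 8.51 CPM (6.68 to 10.7) in WT cells of macrophage-like cluster 0. It was found in 5.28% of Gsdme-KO and 6.15% of WT cells of cluster 2 and in 1.40% of Gsdme-KO and 0.489% of WT neutrophil-like cells of cluster 1, at medians of 9081 and 7476 against 1559 and 1644 UMIs per Gsdme-KO and WT cell. Single immune clusters departed from the pooled share. In dendritic-like cluster 13, Hoxb3 and Hoxb4 had 2 and 4 of 50 HOX UMIs in Gsdme-KO and 1 and 6 of 23 in WT cells, while Hoxa7 had 14 in Gsdme-KO and 8 in WT cells, and Hoxa genes gave 52% (37.4 to 66.3) in Gsdme-KO and 56.5% (34.5 to 76.8) in WT cells. Neutrophil-like cluster 9 had 0 Hoxb4 UMIs in both libraries. Without Hoxb3 and Hoxb4, immune cells as a whole stood at 8.54 CPM in Gsdme-KO and 7.66 CPM in WT cells. Cluster 20, plasma cell-like, was set apart from the immune clusters after its values were seen. It stood at 248 CPM in 79 Gsdme-KO cells and 44.4 CPM in 18 WT cells, and 253 of its 258 Gsdme-KO and 8 of its 9 WT HOX UMIs lay in cells with at least 8 of the 10 fibroblast markers.

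Between the Gsdme-KO and WT libraries the summed HOX level of the 4 stromal and vascular clusters with at least 50 cells in each differed by less than 1.5-fold. Summed over the members, fibroblast-like cluster 3 stood at 354 CPM in Gsdme-KO and 402 CPM in WT cells, a ratio of 0.882 (0.835 to 0.933), and cluster 4 at 344 CPM in Gsdme-KO and 347 CPM in WT cells, a ratio of 0.991 (0.927 to 1.06). The median gene of cluster 3 was shifted as well, by -0.14 on the log2 scale over 11616 genes, against -0.15 over the 22 members with at least 30 UMIs there. In cluster 4 the medians were -0.12 over all genes and -0.10 over 18 members. Scaled by TMM factors, which take out a shift common to most genes, the summed ratio in cluster 3 was 0.973, closer to 1. In cluster 4 the same scaling gave 1.07, further from 1. The ratio was 0.920 (0.795 to 1.07) in endothelial-like and 0.896 (0.751 to 1.07) in smooth muscle-like cells, both with intervals that hold 1. Among immune clusters with few HOX UMIs the ratios were wider, from 0.696 (0.429 to 1.11) in macrophage-like cluster 6 to 2.35 (0.863 to 7.40) in B cell-like cells. Their intervals left out 1 in macrophage-like cluster 2, with 15.5 CPM in Gsdme-KO and 21.1 CPM in WT cells and a ratio of 0.736 (0.571 to 0.953). Only 2 members had at least 30 UMIs there. Hoxb4 stood at 5.99 CPM in Gsdme-KO and 10.3 CPM in WT cells, and Hoxb3 at 2.13 CPM in Gsdme-KO and 3.22 CPM in WT cells. Both ratios were below 1, beside 58.5% of all genes, and 1 of the 2 intervals lay below 1, beside 19.1% of all genes. The summed interval also left out 1 in dendritic-like cells, with 50 HOX UMIs in Gsdme-KO and 23 in WT cells and a ratio of 1.69 (1.01 to 2.90). Of these dendritic-like UMIs, 15 in Gsdme-KO and 2 in WT lay in cells with at least 8 of the 10 fibroblast markers. The part of such cells in this ratio was not tested. Ratios past 1.5-fold with intervals that hold 1 were also seen in monocyte-like cells, at 1.67, platelet-like cells, at 1.57, and neutrophil-like cluster 1, at 1.55. In each of the 4 stromal and vascular clusters the intervals of the Hoxc share overlapped between Gsdme-KO and WT.

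Single members were counted when they passed 1.5-fold, and the same was counted over all genes with at least 30 UMIs. In cluster 3, 2 of 22 members were past it higher in Gsdme-KO cells, beside 4.93% of all genes, and 2 were past it lower, beside 14.0% of all genes. In cluster 4, 2 of 18 members were higher, beside 5.70% of all genes, and 2 were lower, beside 12.4%. In endothelial-like cells 0 of 10 members were higher (8.01% of all genes) and 1 was lower (11.1%), and in smooth muscle-like cells 1 of 5 was higher (10.8%) and 1 was lower (13.4%). Whatever the size of the ratio, it was below 1 for 16 of 22 members in cluster 3, beside 65.5% of all genes, and for 11 of 18 members in cluster 4, beside 62.8% of all genes. The interval lay above 1 for 2 of 22 members and below 1 for 3 in cluster 3, beside 11.7% and 30.1% of all genes. In cluster 4 it lay above 1 for 2 of 18 members and below 1 for 1, beside 11.8% and 25.7% of all genes.

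Hoxb7 was past the fold in both fibroblast-like clusters. It stood at 5.65 CPM (54 UMIs) in Gsdme-KO and 3.16 CPM (16 UMIs) in WT cells of cluster 3, a ratio of 1.79 (1.01 to 3.35), and at 8.67 CPM (66 UMIs) in Gsdme-KO and 5.03 CPM (19 UMIs) in WT cells of cluster 4, a ratio of 1.73 (1.02 to 3.04). In endothelial-like cells it was at 18.2 CPM in Gsdme-KO and 22.2 CPM in WT cells, a ratio of 0.818 (0.394 to 1.73). Whether the ratio differs between cell types was not tested. Hoxb3 was lower in cluster 4, at 5.91 CPM in Gsdme-KO and 9.79 CPM in WT cells, a ratio of 0.604 (0.382 to 0.960), and it was below 1 in cluster 3, at 0.725 (0.494 to 1.07), and in endothelial-like cells, at 0.612 (0.303 to 1.23). Hoxb7 in cluster 3 and Hoxb3 in cluster 4 stayed past the fold under all 11 alternatives run for them. Hoxb7 in cluster 4 did so in 10 of 11, and its ratio was 1.45 as a mean over cells. Leiden resolution 0.5, among these alternatives, merged clusters 3 and 4.

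Hoxc6, Hoxa4 and Hoxb2 moved across the fold with the processing. Hoxc6 stood at 32.7 CPM (313 UMIs) in Gsdme-KO and 50.1 CPM (254 UMIs) in WT cells of cluster 3, a ratio of 0.654 (0.552 to 0.774), and it lay between 0.654 and 0.746 in 11 alternatives, short of the fold in 10 of them. In cluster 4 its ratio was 0.855 (0.678 to 1.08). Hoxa4, at 4.19 CPM (40 UMIs) in Gsdme-KO and 1.97 CPM (10 UMIs) in WT cells of cluster 3, had a ratio of 2.12 (1.04 to 4.76) and lost the fold in 2 of 11 alternatives. Hoxb2, at 11.4 CPM (87 UMIs) in Gsdme-KO and 6.61 CPM (25 UMIs) in WT cells of cluster 4, had a ratio of 1.73 (1.10 to 2.82) and lost it in 4 of 11, and in cluster 3 its ratio was 0.796 (0.540 to 1.18). Hoxa3 in cluster 3, at 0.660 (0.429 to 1.02), and Hoxd9 in cluster 4, at 0.646 (0.347 to 1.22), had intervals that hold 1, and no alternative was run for them. Hoxc10, with the most UMIs of all, stood at a ratio of 1.07 (0.923 to 1.25) in cluster 3 and 0.905 (0.767 to 1.07) in cluster 4, and Hoxd8 at 1.01 (0.814 to 1.25) and 1.12 (0.835 to 1.51) in the same clusters.

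**Figure D5:**
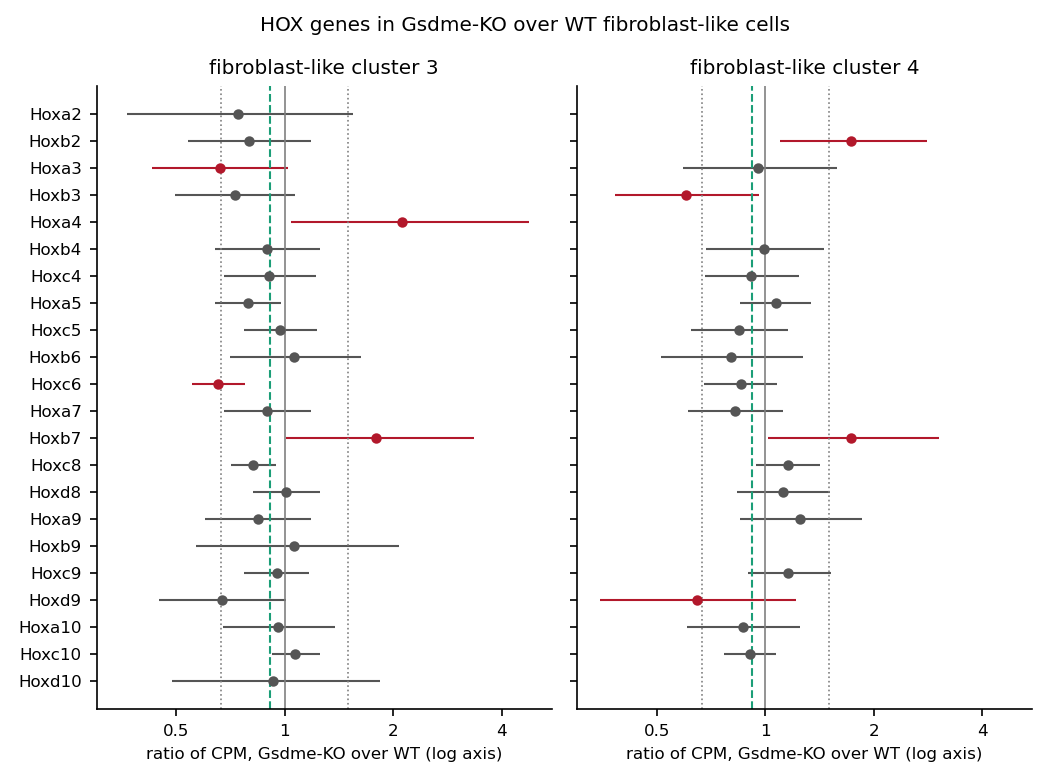
Ratio of CPM in Gsdme-KO over WT cells for HOX genes with at least 30 UMIs, in fibroblast-like cluster 3 (left, 22 genes) and cluster 4 (right, 18 genes), on a log axis with exact 95% intervals; dotted lines mark 1.5-fold, the dashed green line the median of all genes, and red points are past the fold. Most members lie around the median of all genes, and Hoxb7 is right of the fold in both panels, at 1.79 and 1.73.

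In smooth muscle-like cells Hoxa5 stood at 14.6 CPM (14 UMIs) in Gsdme-KO and 40.7 CPM (20 UMIs) in WT cells, a ratio of 0.359 (0.168 to 0.748), and Hoxd8 at 33.5 CPM (32 UMIs) in Gsdme-KO and 14.3 CPM (7 UMIs) in WT cells, a ratio of 2.35 (1.02 to 6.30). The Gsdme-KO cells of this cluster had a median of 8.83% mitochondrial UMIs and 42.4% of them were over 10%, against 6.19% and 26.7% for WT cells. When cells over 10% were removed and the rest clustered anew, the ratios were 0.995 for Hoxa5 and 0.843 for Hoxd8, but the matching cluster then also took in 70 Gsdme-KO and 63 WT cells of fibroblast-like cluster 3. With the clusters kept as they were, the same filter gave 0.395 (0.162 to 0.914) for Hoxa5 and 2.42 (0.866 to 8.34) for Hoxd8.

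HOX proteins bind DNA together with TALE homeodomain cofactors, the PBX, MEIS and PKNOX proteins. Of 10 cofactor genes, 9 had at least 30 UMIs in cluster 3, where 0 were past 1.5-fold higher and 1, Meis3, was past it lower in Gsdme-KO cells (5.96 CPM in Gsdme-KO and 9.07 CPM in WT cells), with a median of -0.17 against -0.14 for all genes (log2). In cluster 4, 0 of 9 were past the fold in either direction. In endothelial-like cells 1 of 6 was past it lower, Meis2, with 57.5 CPM in Gsdme-KO and 105 CPM in WT cells, a ratio of 0.546 (0.380 to 0.781). In smooth muscle-like cells 2 of 7 were past it higher and none lower, beside 10.8% and 13.4% of all genes. For the other clusters the shares of all genes are those given with the HOX members, 4.93% higher and 14.0% lower in cluster 3.

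Of 36 regulators of HOX genes (Polycomb and Trithorax chromatin proteins, retinoid signalling genes, CDX factors and geminin), 28 were counted in cluster 3, where 1 was higher and 4 were lower, and 28 in cluster 4, where 2 were higher and 3 lower. The shares of all genes were 4.93% higher and 14.0% lower in cluster 3 and 5.70% higher and 12.4% lower in cluster 4, so the regulators are named as descriptions only. Aldh1a3, which makes retinoic acid, stood at 151 CPM in Gsdme-KO and 250 CPM in WT cells of cluster 3, a ratio of 0.604 (0.560 to 0.652). Cbx7 and Phc1, of Polycomb complex PRC1, had ratios of 0.566 (0.407 to 0.788) and 0.635 (0.477 to 0.849) there, with 8.27 CPM and 11.4 CPM in Gsdme-KO against 14.6 CPM and 17.9 CPM in WT cells. Crabp2, which carries retinoic acid to the nucleus, stood at 11.4 CPM in Gsdme-KO and 3.97 CPM in WT cells of cluster 4, a ratio of 2.88 (1.65 to 5.37), and the receptor Rxra was lower there, at 0.60 (0.439 to 0.822).

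Of 46 other transcription factors that mark position or mesoderm, 20 were counted in cluster 3 and 18 in cluster 4. In cluster 3, 3 were higher and 5 lower, beside 4.93% and 14.0% of all genes. In cluster 4, 1 was higher and 2 were lower, beside 5.70% and 12.4% of all genes. Foxc1 stood at 49.3 CPM in Gsdme-KO and 31.6 CPM in WT cells of cluster 3 and Foxc2 at 14.8 CPM in Gsdme-KO and 9.47 CPM in WT cells, both with a ratio of 1.56. En1, Tcf21 and Osr2 were lower there, with ratios of 0.458 (0.316 to 0.663), 0.571 (0.425 to 0.767) and 0.593 (0.459 to 0.766). Meox2 had a ratio of 0.601 (0.439 to 0.826) in cluster 4, and in smooth muscle-like cells Prrx1 stood at 164 CPM in Gsdme-KO and 314 CPM in WT cells, a ratio of 0.523 (0.416 to 0.658). The medians of the 3 lists lay between -0.23 and -0.08 (log2) in the 2 fibroblast-like clusters, beside -0.14 and -0.12 for all genes.

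The 13 members with few UMIs filled the ends of the clusters and gaps between. Hoxb5 and Hoxb8 had 78 UMIs each, Hoxc11 45, Hoxa11 43 and Hoxd11 38 over all kept cells, and the other 8 had fewer. Hoxa11, Hoxc11 and Hoxd11, the group known for kidney and lumbosacral patterning, had 40, 41 and 30 of their UMIs in stromal and vascular cells. Of the 39 members, 6 share exonic bases with another gene on the same strand and 9 overlap a gene on the other strand, among them Hoxb2 and Hoxb3 with Hoxb3os and Hoxa7 with Hoxaas3. The labels do not state the strand used in counting, so reads of such partners may not be told apart.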

How the data were processed

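Single-cell RNA-seq of the abdominal aorta gave 1 library per group. The deposited tables hold counts per gene and cell, used as the authors deposited them; CASAVA 1.8, STARsolo and mm10 are named per the submitters' processing notes, and the labels do not state the strand of counting. Barcodes with at least 500 UMIs, 250 genes and at most 25% mitochondrial UMIs were kept (lowest deposited total 500 UMIs). Counts were scaled to 10000 per cell for clustering only, with 2000 variable genes, 30 principal components, 15 neighbours and Leiden resolution 1 (scanpy 1.11.5, leidenalg 0.10.2, Python 3.11.15), with no batch integration. Clusters were named from 23 marker lists. The doublet caller marked 1 Gsdme-KO and 0 WT cells and had not worked, so doublets remain.

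Counts were summed per library and cluster. Levels are CPM with exact Poisson intervals, shares have Clopper-Pearson intervals and ratios exact conditional binomial intervals, all 95%, which cover counting error only. They were tested only on counts simulated from the model that the intervals assume. That simulation did not include UMIs clumped within single cells, so it cannot show how the intervals hold for such counts. Single members were described with at least 30 UMIs in a stromal or vascular cluster, and listed genes were named when past 1.5-fold with at least 100 UMIs, at most 6 a list. A fold was computed only with at least 50 cells of a cluster in each library. TMM (edgeR 4.0.16) and median-of-ratios (DESeq2 1.42.0, R 4.3.3) factors served as alternative scalings, without a test. Departures were made from the plan: fibroblast-like clusters were compared by number, since cluster 3 failed the marker check, and cluster 20 was set apart. The members and lists were chosen with earlier results of these data known. Some listed genes and homeobox sequences that the naming rules would give are not reported here.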

Additional observations from a re-analysis of the deposited data

How the results depend on the processing

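No paired analysis was possible because each group has 1 library and no test was run. Of 522 recomputed values, 429 moved by less than their counting interval, 92 moved further and 1 reversed; where no value below shows it, the cause was not tested. Cells of fibroblast-like cluster 3 and of other clusters change membership when cells are clustered anew. Counts of members and listed genes past the fold are given below without the share of all genes, which was counted at the main settings only. They show how far the counts depend on the setting and are not read as results about the genes. Values are given for Gsdme-KO and then WT.

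With at least 1000 UMIs per cell, cluster 3 stood at 330 and 370 CPM, its WT Hoxc share at 54.8%, and cells with a HOX UMI at 84.0% and 76.6% (endothelial-like), 81.6% and 78.8% (cluster 3), 88.6% (cluster 4, Gsdme-KO) and 67.5% (smooth muscle-like, Gsdme-KO); 0 cofactors and 4 positional factors were past the fold in cluster 3. At most 10% mitochondrial UMIs gave 339 and 380 CPM in cluster 3 and, in smooth muscle-like cells, 472 and 536 CPM, Hoxc shares of 51.7% and 56.9%, cells with a HOX UMI of 71.5% and 88.1%, and ratios of 0.995 for Hoxa5 and 0.843 for Hoxd8, which reversed; 0 cofactors and 5 positional factors were past the fold in cluster 3. Without the highest doublet scores, cluster 3 stood at 335 and 381 CPM and Gsdme-KO smooth muscle-like cells at 405 CPM, with 0 cofactors past the fold in cluster 3.

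When HOX genes were allowed among the variable genes, 0 of them were chosen, so that clustering did not use them either. In it Gsdme-KO cluster 4 stood at 322 CPM and the summed ratio in cluster 3 was 0.941. There 4 and 6 positional factors were past the fold in clusters 3 and 4. At Leiden resolution 0.5 clusters 3 and 4 were both matched to the same merged cluster, which stood at 378 CPM in WT cells. Set against cluster 4, its Gsdme-KO Hoxc share of 55.1% and its 1 cofactor and 7 positional factors past the fold had moved. Alternatives for single members of clusters 3 and 4 include this merged cluster for both. Resolution 2 gave 368 CPM (cluster 3) and 362 CPM (cluster 4) in Gsdme-KO cells, a WT Hoxc share of 54.8% and a summed ratio of 0.95 in cluster 3, and 3 positional factors there. Each library clustered on its own gave 372 and 325 CPM in Gsdme-KO clusters 3 and 4, a summed ratio of 0.942 and 2 members past the fold in cluster 3, 6 positional factors in cluster 4, and a HOX UMI in 66.7% of Gsdme-KO endothelial-like cells.

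TMM factors gave summed ratios of 0.973 (cluster 3) and 1.07 (cluster 4) and median-of-ratios factors 0.975 and 1.07, each with 2 members and 0 cofactors past the fold in cluster 3; they shift log2 ratios by 0.14 in cluster 3. A mean over cells gave 398 and 436 CPM in cluster 3, 372 CPM in Gsdme-KO cluster 4, 0.160 for Hoxa5 in smooth muscle-like cells and 5 positional factors in cluster 3. With no minimum of UMIs, 7 and 9 members were past the fold in clusters 3 and 4, 1 cofactor in cluster 4, 8 regulators in cluster 3, and 18 and 13 positional factors in clusters 3 and 4. With at least 100 UMIs, 1 member was past it in each, and with a fold of 2, 1 in cluster 3 and 0 in cluster 4. Shares of all genes were not counted with these changed minimums and folds.

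Thinned to 1000 UMIs, the summed ratio was 0.944 in cluster 3 and 1.25 in smooth muscle-like cells, and cells with a HOX UMI were 44.0% and 35.6% (endothelial-like), 31.2% and 33.4% (cluster 3), 28.5% and 27.5% (cluster 4) and 34.4% and 28.4% (smooth muscle-like). Thinned to 3000 UMIs, they were 67.9% and 74.1%, 62.6% and 65.6%, and 63.1% and 60.7% in the first 3 of these. Without Hoxc10, the mean paralogue number was 6.66 and 6.64 in cluster 3, 6.52 and 6.4 in cluster 4, and 6.73 and 6.42 in smooth muscle-like cells. With cluster 20, an alternative chosen after seeing the data, Gsdme-KO immune clusters stood at 25.3 CPM. Depth limits members below 30 UMIs and clusters with few WT cells.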

Other observations

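Transcripts from the other strand of the HOX clusters were also captured in the kept cells. Hotairm1, in the Hoxa cluster, had 159 UMIs in Gsdme-KO and 87 in WT cells, Hoxaas3 had 32 in Gsdme-KO and 19 in WT cells, Hoxd3os1 had 25 in Gsdme-KO and 18 in WT cells, and Hoxb3os had 19 in Gsdme-KO and 12 in WT cells. Hoxb5os had 2 UMIs in Gsdme-KO and 4 in WT cells. Hotair, known from posterior fibroblasts, had 3 UMIs in Gsdme-KO and 1 in WT cells, and Hottip had 0 in both.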
